A study of Mus musculus with 12 samples.

Results

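The matrix metalloproteinases (MMPs), the ADAMTS proteases with the ADAMTS-like proteins, and the tissue inhibitors of metalloproteinases (TIMPs) make up the extracellular matrix protease family described here. Members were the protein-coding genes of the deposited count table whose symbols follow the family's names, and 50 of 54532 genes met that rule: 22 MMPs, 19 ADAMTS, 5 ADAMTS-like genes and 4 TIMPs. They were defined by name alone, but the family was selected with the fold changes of these same 12 libraries in view. Its counts and p-values therefore describe this comparison and are not independent evidence.

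Total RNA of dorsal root ganglia from C57BL/6 mice was sequenced in 12 libraries, 6 DAAO and 6 control, and all 12 came from mice treated with D-alanine. The DAAO mice carry the genotype label DAAO-TGCdh5, a transgene for D-amino acid oxidase, which makes hydrogen peroxide from D-alanine. The control mice are labelled CDH5-Cre, a recombinase driven by the promoter of the endothelial cadherin gene, and Cre appears for the DAAO mice in their sample titles only. The labels give neither age nor sex and do not say whether a library is 1 animal or a pool, so n counts libraries and p-values measure the spread between these samples, which may be technical. The question was which family transcripts differed between the 2 genotypes.

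MMPs and ADAMTS enzymes hold a zinc ion in their active site and are made as inactive precursors that lose an inhibitory propeptide. MMPs cut collagens, elastin, laminins and many cell surface proteins, while ADAMTS enzymes cut proteoglycans, process fibrillar procollagens or act on fibrillin microfibrils. TIMPs block the active site of MMPs and, for some members, of ADAMTS enzymes. In peripheral nerve these enzymes are known for the opening of the blood-nerve barrier, for macrophage entry and for the remodelling of basement membranes after injury.

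The libraries held 13227518 to 23884927 counts each. The 8 sensory neuron markers summed to between 6741 and 10528 CPM (read counts scaled to a common library size) in DAAO and between 6632 and 12514 CPM in controls, with none at 0. Control 2 stood apart: its Schwann and satellite glia markers summed to 22797 CPM and its oligodendrocyte markers to 2991 CPM, and with control 6 it had the highest mitochondrial shares (7.44% and 7.65%, against 3.32% in the lowest library). Skeletal muscle markers were highest in control 4, with a sum of 1998 CPM. In 5 of the 12 libraries Xist and Y-chromosome transcripts were found together, each above 10 CPM.

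In DAAO ganglia 4 members rose: Mmp12, the macrophage elastase; Mmp17 and Mmp14, which are MMPs bound to the cell membrane; and Adamtsl1, a secreted ADAMTS-like glycoprotein with no protease domain. No member fell. The test was edgeR's quasi-likelihood test over 17002 genes with Benjamini-Hochberg adjustment and a threshold of 0.05. Of all genes tested, 0.506% were called higher and 0.247% lower in DAAO. For the members that fell the count was 0 with edgeR, DESeq2 and limma-voom, and no member was lower at an unadjusted p under 0.05.

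A filter on low counts left 40 members: 13 MMPs, 18 ADAMTS, 5 ADAMTS-like genes and 4 TIMPs. The log2 fold change (DAAO minus control) was positive in 30 of these 40 and negative in 10, with a median of 0.29. Over all genes tested it was positive in 50.4%, with a median of 0.0021. An unadjusted p under 0.05 was reached by 13 members, all higher in DAAO, where 5.44% of all genes were higher and 4.87% lower at that level. The groups did not overlap in 3 members, Mmp12, Mmp17 and Adamtsl1, with every DAAO library above every control library; that held for 0.918% of all genes tested. A filter of this kind keeps genes through the group in which they are high, so these counts describe the 40 members and not the whole family. Among the 36 members that did not pass the test the median was 0.19.

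**Figure D1:**
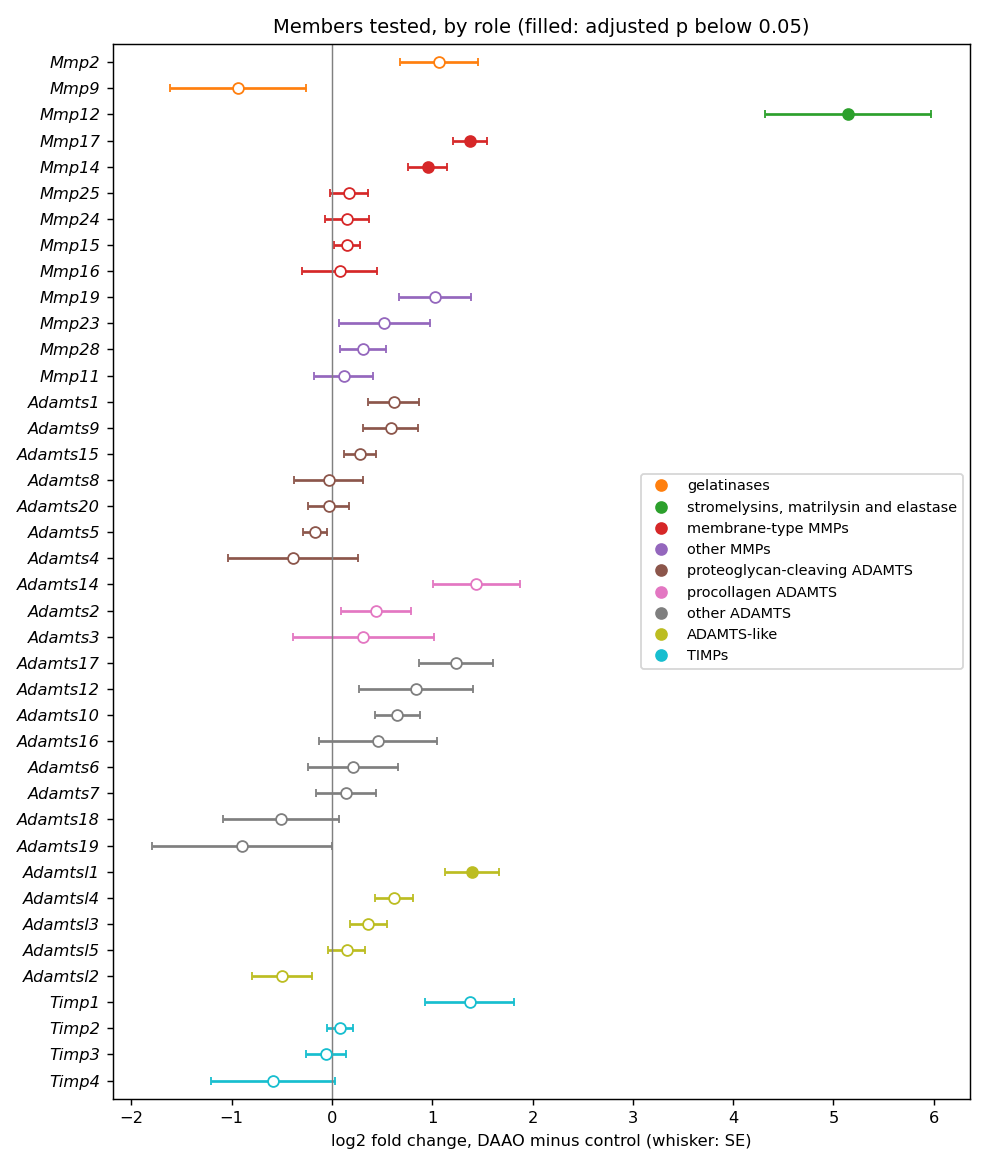
Log2 fold change of the 40 members tested (x axis, DAAO minus control, with SE), 1 row per gene, coloured by role, from edgeR. Filled points are the 4 members with an adjusted p under 0.05, all right of 0; Mmp12 lies farthest right at 5.15.

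Membrane-type MMPs are anchored in the plasma membrane and act at the cell surface, and all 6 had a positive fold change. Mmp17, held by a lipid (GPI) anchor, gave the smallest p of the family. Its DAAO libraries ranged from 31.2 to 50.0 CPM with a median of 39.3, against 11.8 to 20.1 CPM with a median of 15.4 in controls. The lowest DAAO library, DAAO 5, lay above the highest control, control 5. Mmp17 (ENSMUSG00000029436; chromosome 5, 129584169 to 129611099, positions on build GRCm38) averaged 40.5 ± 8.26 CPM in DAAO and 15.6 ± 3.0 CPM in controls (SD, n = 6 each). Its log2 fold change was 1.38 ± 0.17 (SE), a 2.59-fold difference, with an edgeR adjusted p of 0.000589. It passed in all 19 alternatives tried, with adjusted p values up to 0.00414.

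Mmp14 is the transmembrane enzyme that activates the precursor of Mmp2 in a complex with Timp2. Its DAAO libraries ranged from 52.8 to 112 CPM with a median of 91.3, against 35.6 to 58.0 CPM with a median of 39.7 in controls. The groups overlapped, because DAAO 4 and DAAO 5 (52.8 and 54.5 CPM) lay below control 2. Mmp14 (ENSMUSG00000000957; chromosome 14, 54431612 to 54445364) rose by 0.95 ± 0.19 (SE) on the log2 scale, or 1.94-fold, with an edgeR adjusted p of 0.0254. The mean was 83.6 ± 24.7 CPM in DAAO and 43.2 ± 8.83 CPM in controls (SD, n = 6 each). The call was lost without DAAO 1, 2, 3 or 6 or without control 1, 3, 4 or 5, with adjusted p values up to 0.0878. With each library left out in turn the log2 fold change lay between 0.86 and 1.06.

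The other 4 membrane-type enzymes had log2 fold changes between 0.08 and 0.17, and none passed. Mmp15, a transmembrane relative of Mmp14, averaged 141 ± 17 CPM in DAAO and 128 ± 21.3 CPM in controls (SD, n = 6 each; edgeR adjusted p = 0.783). Mmp25, which like Mmp17 has a GPI anchor, averaged 75.4 ± 6.00 CPM in DAAO and 67.1 ± 21.8 CPM in controls (edgeR adjusted p = 0.857). Mmp24 averaged 30.3 CPM in DAAO and 27.2 CPM in controls, and Mmp16 averaged 6.17 CPM in DAAO and 5.84 CPM in controls. Mmp24 shares 13.6% of its exon bases with BC029722 on the other strand, so part of its count is uncertain.

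Mmp12 degrades elastin and is known as a product of macrophages. Its counts were 151, 133, 317, 56, 101 and 281 in DAAO 1 to 6, against 0, 0, 0, 8, 13 and 8 in controls 1 to 6. The 6 DAAO libraries lay between 3.04 and 17.7 CPM with a median of 8.18, against 0 to 0.655 CPM with a median of 0.187 in controls. DAAO 3 and DAAO 6 were highest, DAAO 4 was lowest, and 3 controls had no count. Mmp12 (ENSMUSG00000049723; chromosome 9, 7344381 to 7369499) had a log2 fold change of 5.15 ± 0.83 (SE, edgeR adjusted p = 0.00854), or 35.4-fold, which rests on 29 counts over the 6 controls. It passed when each library was left out in turn, with adjusted p values up to 0.0286, and with DESeq2, but not with limma-voom (adjusted p = 0.140).

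Of 8 macrophage markers 7 had a positive fold change and none was called by edgeR or limma-voom, while DESeq2 called Cd68. Their summed level was 70.9 to 239 CPM in DAAO, highest in DAAO 3, and 28.4 to 172 CPM in controls, highest in control 2, with no marker at 0. DAAO 4 and DAAO 5 were lowest in DAAO for both the markers and Mmp12, but control 2, the control with the highest marker sum, had no Mmp12 count. Cd68, a lysosomal protein of phagocytes, ranged from 11.9 to 59.1 CPM in DAAO and from 0.560 to 10.3 CPM in controls. Its groups did not overlap, and its log2 fold change was 2.56 ± 0.60 (SE, edgeR adjusted p = 0.0902). That was the largest of the 8, and the next was Adgre1 with 0.92 (edgeR adjusted p = 0.464). Csf1r had 0.44 (edgeR adjusted p = 0.841), and Mrc1 was the marker with a negative fold change (-0.16, edgeR adjusted p = 0.950). Whether more macrophages or more RNA per macrophage gave these levels cannot be told apart in whole ganglia, and the part of macrophage number in the Mmp12 result was not tested.

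**Figure D2:**
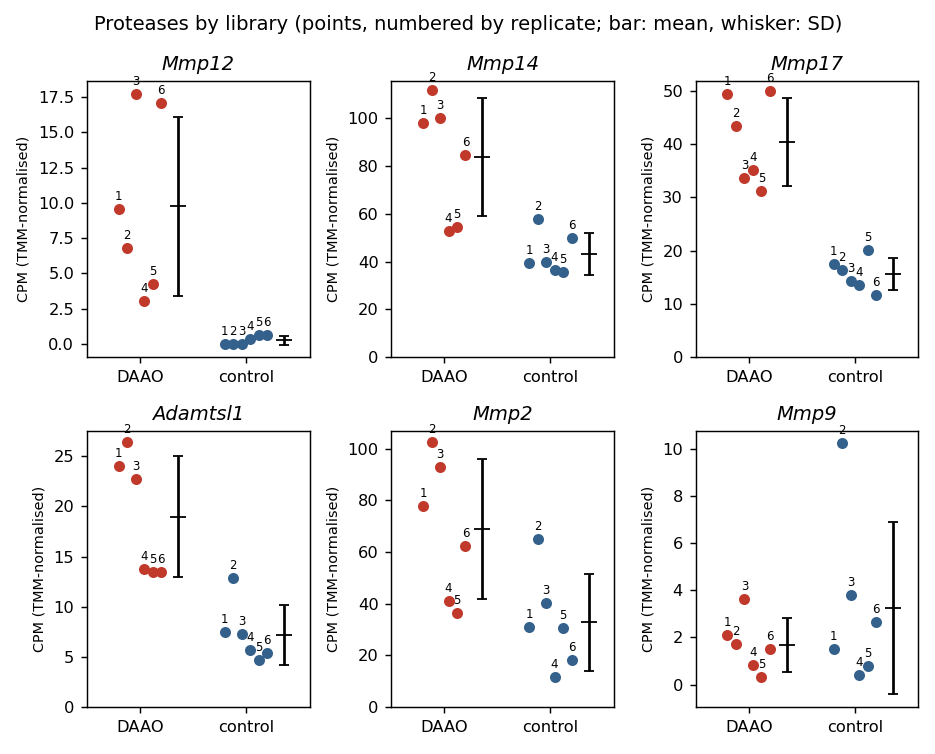
CPM (y axis) of Mmp12, Mmp14, Mmp17, Adamtsl1, Mmp2 and Mmp9 in each library, 6 DAAO (red) and 6 control (blue), numbered by replicate, with mean and SD. DAAO points lie above every control point for Mmp12, Mmp17 and Adamtsl1, and the groups overlap for Mmp14, Mmp2 and Mmp9.

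Mmp12 lies in a cluster of 9 members on chromosome 9, between positions 7272514 and 7699585. In chromosomal order these are Mmp13, Mmp12, Mmp1b, Mmp3, Mmp10, Mmp8, Mmp27, Mmp20 and Mmp7, and Mmp12 was the only member of the cluster to pass the count filter. Mmp1b, a collagenase, Mmp10, a stromelysin, Mmp20, the enamel protease, and Mmp7, matrilysin, had no count in any library, which allows up to 3 counts over a group, or 0.0272 CPM over the controls. Mmp12 shares 157 exon bases with Mmp1b on the other strand, which is 2.17% of the exon bases of Mmp12.

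Mmp27, a little studied member, had 12, 4, 40, 4, 0 and 13 counts in DAAO 1 to 6 and no count in any control. Set against 3 counts over the control group, its level was 24.0-fold higher in DAAO, with the DAAO total of 73 counts taken as exact. That ratio is not a lower bound, because the DAAO counts also vary, with 40 in DAAO 3 and 0 in DAAO 5. Mmp27 did not pass the filter, and in an edgeR fit without a filter its adjusted p was 0.0522 over 31995 genes. DAAO 3, which was highest for Mmp12 and for the macrophage markers, was also highest for Mmp27.

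The remaining cluster members were low in both groups. Mmp8, the neutrophil collagenase, had 80 counts over the DAAO libraries, 60 of them in DAAO 3, and 151 counts over the controls, 93 of them in control 2. Mmp13, collagenase 3 of bone and cartilage, had 57 counts in DAAO and 86 in controls, with 38 in control 2. Mmp3, stromelysin 1, had 37 counts in DAAO and 31 in controls. Without a filter none of these 3 passed, with edgeR adjusted p values from 0.827 to 0.998.

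**Figure D3:**
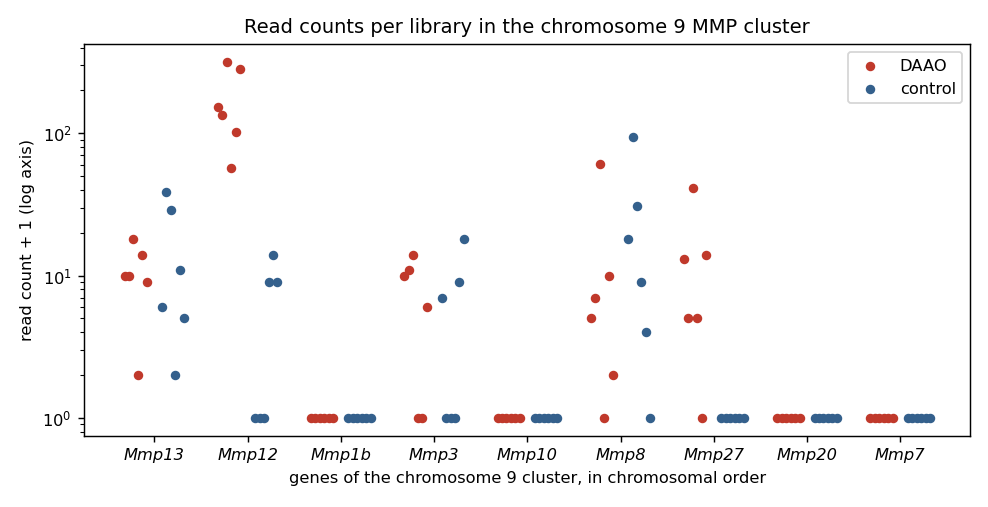
Read counts plus 1 (y axis, log scale) of the 9 members of the chromosome 9 cluster in chromosomal order (x axis), 1 point per library, DAAO in red and control in blue. Mmp12 is high in all 6 DAAO libraries, Mmp27 is above 0 in 5 DAAO libraries and no control, and 4 genes have no count.

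The cluster's promoters were searched for the letters TGANTCA, a loose form of the binding motif of AP-1 factors, with any base allowed at N. AP-1 factors are protein pairs such as Jun with Fos or Atf proteins. The search covered RefSeq windows of all genes (GRCm38.p6) from 250 bases before to 50 bases after each annotated start. It reads the same on both strands, and no other motif was searched. Windows were found for 35 of the 50 members, and the called members Mmp17 and Adamtsl1 had none. The motif was in a window of 7 of the 9 cluster members, with its first base between 95 and 35 bases before the start, and in none of the 26 other members with a window. Of all 32851 windows 7.81% held the motif, a share per window and not per gene. Mmp12 and Mmp7 each also had a window without the motif. Mmp8 and Mmp27 were the cluster members with the motif in no window. Of the 7 genes with a match 4 had no count, so a match went with very different levels, and a match is not a bound site.

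The 100 bases before the start of 4 cluster members, and of Mmp14 as a called member outside the cluster, are shown because they carry or lack these letters. All are read 5′ to 3′ on the plus strand of GRCm38.p6, and capitals mark the motif. Mmp12 has 2 annotated starts, at 7344397 and 7347374, and only the window of the second holds the motif and is shown. The first lies near the gene start of the deposited table (7344381), and the second lies inside the gene. Counts per gene do not show which start was used.
Mmp12, chr9:7347274-7347373: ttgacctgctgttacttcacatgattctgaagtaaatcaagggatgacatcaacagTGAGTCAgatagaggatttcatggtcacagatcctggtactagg
Mmp13, chr9:7272414-7272513: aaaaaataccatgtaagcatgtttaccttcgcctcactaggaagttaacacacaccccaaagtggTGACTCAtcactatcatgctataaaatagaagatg
Mmp3, chr9:7445722-7445821: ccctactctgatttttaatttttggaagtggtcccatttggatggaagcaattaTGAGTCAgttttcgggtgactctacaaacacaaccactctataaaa
Mmp10, chr9:7502242-7502341: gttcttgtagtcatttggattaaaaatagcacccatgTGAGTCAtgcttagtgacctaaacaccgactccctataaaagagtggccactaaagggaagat
Mmp14, chr14:54431498-54431597: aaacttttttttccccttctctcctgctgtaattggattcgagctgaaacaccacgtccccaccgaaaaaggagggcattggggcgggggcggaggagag

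The gelatinases, which cut denatured collagen and collagen IV of basement membranes, had fold changes of opposite sign and neither passed. Mmp2, gelatinase A, ranged from 36.2 to 102 CPM with a median of 70.1 in DAAO and from 11.7 to 64.9 CPM with a median of 30.8 in controls. All 6 DAAO libraries lay above the control median, but DAAO 4, 5 and 6 (41.2, 36.2 and 62.4 CPM) lay below control 2. Mmp2 had a log2 fold change of 1.07 ± 0.39 (SE, edgeR adjusted p = 0.345). Mmp9, gelatinase B of leukocytes, ranged from 0.336 to 3.64 CPM in DAAO and from 0.420 to 10.2 CPM in controls, with the highest value in control 2. Its log2 fold change was -0.94 ± 0.68 (SE, edgeR adjusted p = 0.708), and without controls 2 and 6 it was 0.06.

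DAAO 3 and control 2, the highest libraries of their groups for Mmp8 and Mmp9, were also highest for neutrophil markers. The summed level over 7 markers was 4.89 to 96.7 CPM in DAAO, highest in DAAO 3, and 6.68 to 155 CPM in controls, highest in control 2. All 5 markers tested had a negative fold change, none was called by edgeR, DESeq2 or limma-voom, none had an unadjusted p under 0.05, and none was at 0 over all libraries. Ly6g and Elane did not pass the filter. Ly6g had 49 counts in DAAO, 38 of them in DAAO 3, and 0 in controls. Elane had 76 counts in DAAO and 86 in controls. The part of neutrophil content in the Mmp8 and Mmp9 values was not tested.

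Of the other 7 MMPs, 4 were tested and all had a positive fold change. Mmp19 averaged 5.14 ± 1.94 CPM in DAAO and 2.52 ± 0.88 CPM in controls (SD, n = 6 each), with a log2 fold change of 1.03 ± 0.36 (SE, edgeR adjusted p = 0.277). Mmp19 shares 22.3% of its exon bases with the opposite-strand gene Tmem198b (log2 fold change 0.71, edgeR adjusted p = 0.387), so part of its count is uncertain. Mmp23, Mmp28 (epilysin) and Mmp11 (stromelysin 3) had log2 fold changes of 0.52, 0.31 and 0.12 and did not pass. Mmp21 had 13 counts over all libraries.

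ADAMTS enzymes include the cleavers of aggrecan, versican and brevican, the procollagen N-propeptidases, and enzymes of fibrillin microfibrils. None of the 18 tested was called by edgeR, DESeq2 or limma-voom, and 5 of them had an unadjusted p under 0.05, all higher in DAAO. Among the 7 proteoglycan-cleaving enzymes the fold change was positive in 3 and negative in 4, with a median of -0.03. Adamts5, a main aggrecanase, was the most abundant ADAMTS per length, and it averaged 69.0 ± 4.85 CPM in DAAO and 77.5 ± 12.7 CPM in controls (SD, n = 6 each; edgeR adjusted p = 0.693). Adamts1 and Adamts9, which cut versican, had log2 fold changes of 0.62 ± 0.25 and 0.58 ± 0.27 (SE, edgeR adjusted p = 0.399 and 0.475). Adamts9 shares 9.18% of its exon bases with A730049H05Rik on the other strand.

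Adamts4, an aggrecanase also expressed by oligodendrocytes, ranged from 2.31 to 10.4 CPM in DAAO and from 0.887 to 22.2 CPM in controls, where control 2 was highest. The 5 oligodendrocyte markers summed to 424 to 957 CPM in DAAO and to 273 to 2991 CPM in controls, also highest in control 2, and their part in the Adamts4 values was not tested. The edgeR adjusted p of Adamts4 was 0.915.

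The 3 procollagen N-propeptidases, which trim the amino end of fibrillar procollagens, all had a positive fold change. Adamts14 was lowest of them and had the largest fold change: 1.97 to 7.98 CPM with a median of 3.63 in DAAO, against 0.498 to 2.37 CPM with a median of 1.54 in controls. Its groups overlapped in DAAO 5 alone, and its log2 fold change was 1.44 ± 0.43 (SE, edgeR adjusted p = 0.176). Adamts2, the enzyme lost in a skin fragility form of Ehlers-Danlos syndrome, averaged 29.9 ± 12.6 CPM in DAAO and 22.1 ± 10.9 CPM in controls (SD, n = 6 each; edgeR adjusted p = 0.757). Adamts3, which also activates the lymphatic growth factor VEGF-C, averaged 4.84 ± 1.48 CPM in DAAO and 3.87 ± 3.74 CPM in controls.

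Among the 9 remaining ADAMTS genes 8 were tested, 6 with a positive and 2 with a negative fold change. Adamts17 and Adamts10, both linked to fibrillin microfibrils, had log2 fold changes of 1.24 ± 0.37 and 0.65 ± 0.22 (SE, edgeR adjusted p = 0.179 and 0.269). Adamts10 ranged from 16.1 to 30.7 CPM in DAAO and from 10.7 to 24.2 CPM in controls, and all 6 DAAO libraries lay above the control median. Without controls 2 and 6 Adamts10 passed (edgeR adjusted p = 0.0394). Adamts13, the von Willebrand factor protease, did not pass the filter, with 6 counts over the DAAO libraries and 35 over the controls, 21 of these in control 1. Adamts19 and Adamts18 were the 2 with a negative fold change (-0.90 and -0.51), at mean levels of 0.479 and 0.752 CPM in DAAO and of 0.903 and 1.08 CPM in controls.

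ADAMTS-like proteins share the ancillary domains of ADAMTS enzymes, lack the protease domain and reside in the matrix. Adamtsl1 ranged from 13.4 to 26.4 CPM with a median of 18.3 in DAAO, against 4.64 to 12.9 CPM with a median of 6.46 in controls. The DAAO libraries formed a high set (DAAO 1, 2 and 3, from 22.8 CPM) and a low set (DAAO 4, 5 and 6, up to 13.8 CPM), and the low set lay just above control 2, at 12.9 CPM. Adamtsl1 (ENSMUSG00000066113; chromosome 4, 85514172 to 86428385) rose by 1.39 ± 0.27 (SE) on the log2 scale, or 2.63-fold, with an edgeR adjusted p of 0.0185. The call was lost without DAAO 1, 2 or 3 or without control 1, 3 or 5, with adjusted p values up to 0.0644. Its span overlaps that of Sh3gl2 on the same strand, with no shared exon base, and Sh3gl2 fell (-0.68 on the log2 scale, edgeR adjusted p = 0.00873).

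Of the other 4 ADAMTS-like genes 3 had a positive fold change and none passed. Adamtsl4, a microfibril-associated protein, averaged 23.7 ± 3.95 CPM in DAAO and 15.4 ± 4.01 CPM in controls (SD, n = 6 each), with a log2 fold change of 0.62 ± 0.19 (SE, edgeR adjusted p = 0.180). Without controls 2 and 6 it passed (edgeR adjusted p = 0.0466). Adamtsl3 and Adamtsl5 had log2 fold changes of 0.36 and 0.15. Adamtsl2, which binds fibrillin, averaged 3.64 ± 0.57 CPM in DAAO and 5.18 ± 2.31 CPM in controls (edgeR adjusted p = 0.615), with all 6 DAAO libraries below the control median.

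No TIMP was called by edgeR, DESeq2 or limma-voom, and Timp1 alone had an unadjusted p under 0.05. Timp1, the inhibitor that injury and cytokines induce, ranged from 4.13 to 17.1 CPM with a median of 11.6 in DAAO and from 0.841 to 7.36 CPM with a median of 4.05 in controls. DAAO 1, 2, 3 and 6 lay above every control, while DAAO 4 and DAAO 5 (4.13 and 4.20 CPM) lay among the controls. Timp1 had a log2 fold change of 1.37 ± 0.44 (SE, edgeR adjusted p = 0.228). It lies within the span of Syn1 on the other strand and shares no exon base with it.

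Timp2 was the most abundant member and varied little in DAAO, from 856 to 926 CPM, against 602 to 1062 CPM in controls, where control 2 was lowest and control 4 highest. Its mean was 896 ± 30.4 CPM in DAAO and 849 ± 161 CPM in controls (SD, n = 6 each; edgeR adjusted p = 0.915). Timp3, which binds to the matrix and also blocks ADAMTS enzymes, averaged 114 ± 17.1 CPM in DAAO and 118 ± 37.0 CPM in controls (edgeR adjusted p = 0.967). It shares 21.3% of its exon bases with Syn3 on the other strand. Timp4 ranged from 3.32 to 15.2 CPM in DAAO and from 2.88 to 42.0 CPM in controls, highest in control 2 (edgeR adjusted p = 0.845). The log2 fold changes of Timp2, Timp3 and Timp4 were 0.08, -0.06 and -0.59. Each changed sign in at least 1 alternative, that of Timp4 to 0.23 without control 2.

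**Figure D4:**
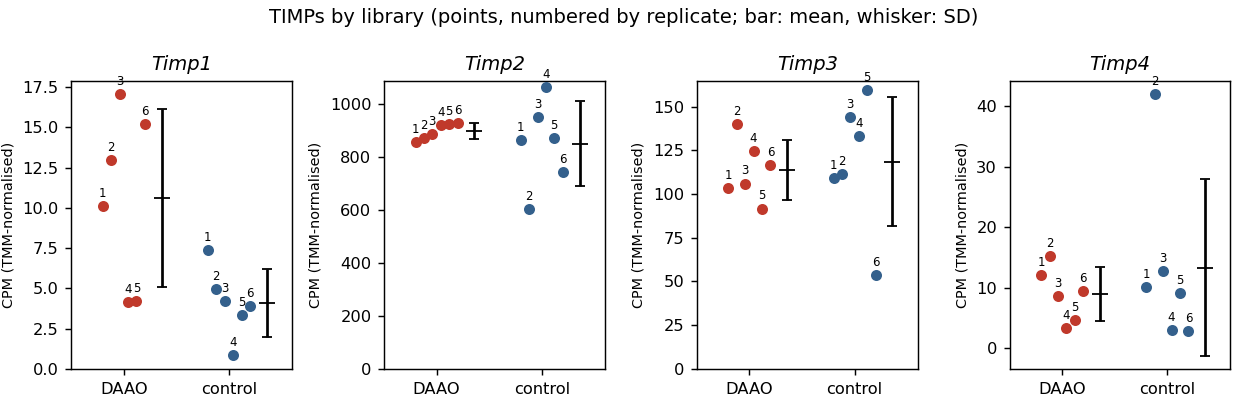
CPM (y axis) of the 4 TIMPs in each library, 6 DAAO (red) and 6 control (blue), numbered by replicate, with mean and SD. Timp1 is above all controls in DAAO 1, 2, 3 and 6 and among them in DAAO 4 and 5, and Timp4 is highest in control 2.

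Levels were set against each other per length, as CPM per kb of the gene length in the deposited table. Timp2 led with 230 ± 7.79 in DAAO and 218 ± 41.3 in controls (SD, n = 6 each), and no other member came near it. Mmp15 followed with 26.2 ± 3.14 in DAAO and 23.6 ± 3.95 in controls. Mmp2, Timp3, Mmp25 and Mmp14 came next, and in DAAO their means of 20.4, 14.0, 14.2 and 14.0 CPM per kb did not differ beyond their spread. Timp1 was at 12.0 ± 6.20 CPM per kb in DAAO and 4.61 ± 2.4 in controls, and Mmp17 at 6.12 ± 1.25 in DAAO and 2.35 ± 0.454 in controls. Mmp12 reached 1.35 ± 0.877 CPM per kb in DAAO, against 0.0384 ± 0.0443 in controls.

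**Figure D5:**
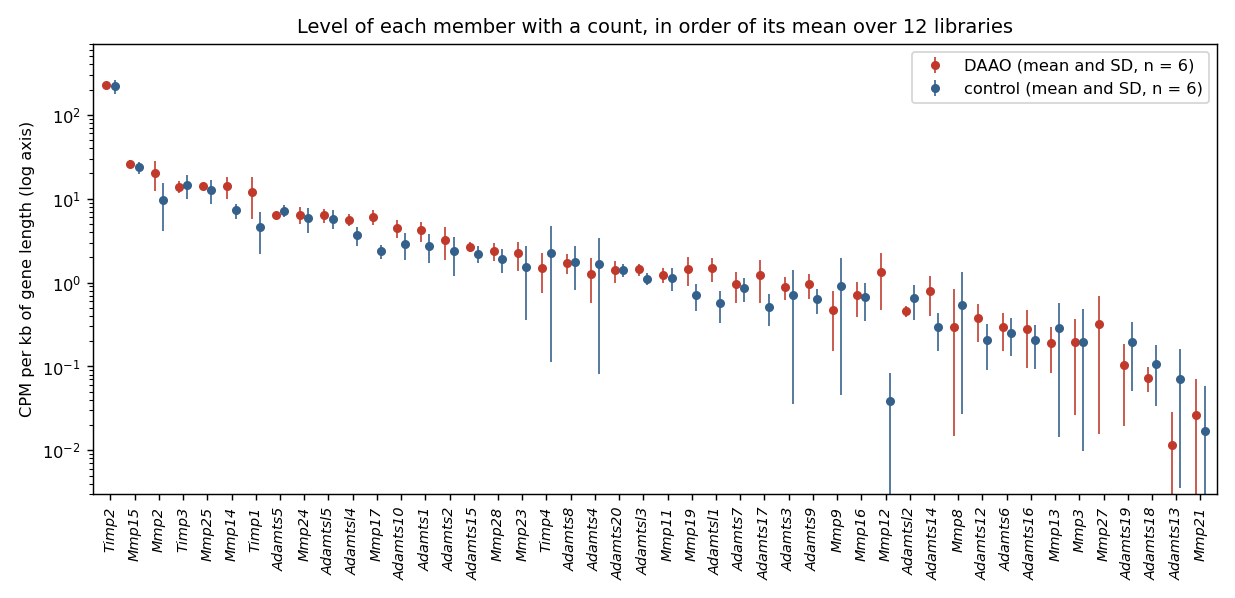
Mean CPM per kb of gene length (y axis, log scale) of the 46 members with a count, in DAAO (red) and control (blue), with SD; lower whiskers that would pass 0 are shortened. Genes run from the highest to the lowest mean over 12 libraries, from Timp2 to Mmp21, Mmp12 shows the widest gap between 2 drawn means, and Mmp27 has no control point because its control mean is 0.

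Within DAAO, libraries 4 and 5 were the lowest 2 for Mmp2, Mmp12, Mmp14 and Timp1. The 6 fibroblast and nerve sheath markers had the same lowest 2 libraries, with summed levels of 1617 to 3677 CPM in DAAO and 694 to 3477 CPM in controls. This was not particular to them. The macrophage, neutrophil, Schwann and satellite glia, oligodendrocyte, and bone and cartilage marker sums were also lowest in DAAO 4 and DAAO 5. The sensory neuron sum was highest in these 2 libraries (10200 and 10528 CPM). In controls the fibroblast sum was lowest in control 4 and highest in control 2, as was Mmp2. Mmp14 was also highest in control 2 but lowest in control 5, and Timp1 was lowest in control 4 but highest in control 1. All 6 fibroblast and nerve sheath markers had a positive fold change, with a median of 0.47, and none was at 0. None was called by edgeR, DESeq2 or limma-voom, and none had an unadjusted p under 0.05. The part of these marker lists in the values of Mmp2, Mmp12, Mmp14 and Timp1 was not tested.

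For Mmp17, DAAO 6 and DAAO 1 were the highest libraries and control 2 lay in the middle of the controls. The 8 repair Schwann cell markers summed to between 983 and 1226 CPM in DAAO and between 551 and 969 CPM in controls, without overlap, and 7 of 8 had a positive fold change, with 3 called higher (Btc, Runx2 and Sox2) and none at 0. Most of the sum came from Ngfr and Gap43, which averaged 706 and 259 CPM in DAAO and 536 and 221 CPM in controls. Their groups overlapped and neither was called (edgeR adjusted p = 0.583 and 0.640). Among the controls, control 2 was lowest for Ngfr (193 CPM) and for the sensory neuron sum (6632 CPM). It was highest for Olig1 (94.0 CPM), also of the 8, and for the oligodendrocyte sum (2991 CPM). Whole ganglia do not show which cells hold these transcripts, so the sum is not a measure of repair Schwann cells alone. Btc, Runx2 and Sox2 averaged 22.5, 23.1 and 49.5 CPM in DAAO and 0.932, 7.28 and 23.6 CPM in controls. Within groups the ranks of the marker sum and of Mmp17 differed. DAAO 5 had the highest sum in DAAO (1226 CPM) and the lowest Mmp17 (31.2 CPM), while DAAO 6, highest for Mmp17, came next in the sum (1174 CPM). Control 4 had the highest control sum (969 CPM) with Mmp17 at 13.5 CPM, and control 5 had the highest control Mmp17 (20.1 CPM). Shh was the repair marker with a negative fold change (-0.51, edgeR adjusted p = 0.511). Of 7 Schwann and satellite glia markers 6 had a negative fold change and 1, Sox10, a positive one. At an unadjusted p under 0.05, 4 were lower and 1 higher. S100b was called lower without overlap (-0.67, edgeR adjusted p = 0.0414). Of 5 mural markers 2 were positive and 3 negative, and Cspg4 was called higher (0.74, edgeR adjusted p = 0.0335). Cspg4 was not called by limma-voom. The part of these marker lists in the Mmp17 result was not tested.

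Other pericellular proteases and their regulators were counted from 4 lists. In the ADAM list, of membrane-bound sheddases and their catalytically inactive relatives, 11 of 12 genes were tested and none was called by edgeR, DESeq2 or limma-voom. At an unadjusted p under 0.05, 2 were higher and 1 was lower. Adam33 led them with a log2 fold change of 1.02 ± 0.30 (SE, edgeR adjusted p = 0.167), followed by Adam23, a catalytically inactive neuronal member, with -0.45 (adjusted p = 0.464), and Adam12 with 0.83 (adjusted p = 0.484). Without control 2 Adam23 passed as lower (-0.60, edgeR adjusted p = 0.0446). Without controls 2 and 6 Adam23 passed as lower and Adam33 as higher (edgeR adjusted p = 0.0146 and 0.0398).

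In the plasminogen activation list 1 of 7 genes tested fell and none rose. Serpini1, which encodes neuroserpin, the neuronal inhibitor of tissue plasminogen activator, averaged 86.8 ± 9.72 CPM in DAAO and 130 ± 20.0 CPM in controls (SD, n = 6 each), and the groups did not overlap. It fell by 0.58 on the log2 scale, with an edgeR adjusted p of 0.0312. The call was lost without DAAO 1, 2, 3 or 6 or control 3, 4 or 5, with adjusted p values up to 0.103. The protease that it inhibits, Plat, and the urokinase gene Plau had log2 fold changes of 0.38 and 0.37 and did not pass (edgeR adjusted p = 0.625 and 0.572).

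In the list of astacins and procollagen enhancers 1 of 5 genes tested rose. Bmp1, the procollagen C-proteinase, ranged from 25.5 to 59.9 CPM in DAAO and from 14.7 to 29.6 CPM in controls, and overlapped in DAAO 3 and DAAO 5, which lay below control 6. It rose by 1.03 ± 0.21 (SE) on the log2 scale, with an edgeR adjusted p of 0.0325. The call was lost with limma-voom (adjusted p = 0.0575) and without DAAO 1, 2, 4 or 6 or control 1, 3, 4 or 5, with adjusted p values up to 0.104. Pcolce, which enhances that enzyme, had a log2 fold change of 0.74 (edgeR adjusted p = 0.609), and Tll1, a relative of Bmp1, had -0.41 (edgeR adjusted p = 0.903). With each library left out Pcolce lay between 0.57 and 1.16, highest without control 2, and Tll1 between -0.67 and -0.25, and neither passed. With limma-voom Tll1 was at -0.016.

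Of 13 activators and modulators of MMPs none was called by edgeR, DESeq2 or limma-voom, with 3 higher and 1 lower at an unadjusted p under 0.05. Lrp1, an endocytic receptor that clears proteases, and Furin, which activates membrane-type MMPs and ADAMTS precursors, had log2 fold changes of 0.53 and 0.51 (edgeR adjusted p = 0.285 and 0.287). Spock1, a proteoglycan of neurons, had -0.35 (adjusted p = 0.371), and it passed as lower without control 2 (-0.44, edgeR adjusted p = 0.0414) and without controls 2 and 6 (edgeR adjusted p = 0.0323). Reck, a membrane-bound inhibitor of MMPs, had 0.04 (adjusted p = 0.974).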

How the data were processed

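Ganglia were snap frozen and RNA taken with Trizol, and paired reads were made on an Illumina platform, per the labels' protocols. The authors deposited a table of raw read counts per gene for 12 libraries. Per the submitters' processing notes, HISAT2 2.0.5, FastQC and DESeq2 1.20.0 were used with builds GRCm38 and mm10, in roles not given there. No source used here names the counting program or its strand setting, so genes that share exon bases on opposite strands are named as uncertain. Exon overlaps come from GENCODE M21, which gave the same start and end for 49 of 50 members.

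The filter filterByExpr of edgeR (count at least 10, total at least 15, by group) left 17002 genes, holding at least 99.7% of each library's counts. Scaling was by TMM and testing by the robust quasi-likelihood method of edgeR 4.0.16 under R 4.3.3, 6 DAAO against 6 control, two-sided; p-values were adjusted by Benjamini and Hochberg over the 17002 genes. Each SE was taken from the fold change and its F statistic. Gene lengths in bases are as deposited. Alternatives were DESeq2 1.42.0, limma-voom (limma 3.58.1), DESeq2 size factors, no filter, a filter of 1 CPM in 6 libraries, the replicate number as a block, each library left out, and controls 2 and 6 left out. The fits were tested on simulated data. Members that passed, all TIMPs and members grouped by role are named, and of each related list those that passed and the 3 with the smallest p. Reck, Adamts19, overlapping genes and single marker genes were named after their values were seen. The members and lists were chosen with earlier results of these data known. All 66 pairs of libraries differed beyond sampling noise (chi-square over its degrees of freedom at least 18.1). Floors cover only the counting error of the group with no count.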

Additional observations from a re-analysis of the deposited data

Results flagged for a closer look

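Of 34 groups of 6 libraries, for the 17 members of the gelatinases, the TIMPs and those with an unadjusted p under 0.05, 3 held a library far from the other 5, and chance flags about 1 in 20 groups. All 3 were control 2. Mmp9 stood at 10.2 CPM there, and the next control at 3.79 CPM. Adamtsl1 stood at 12.9 CPM, and the next control at 7.47 CPM. Timp4 stood at 42.0 CPM, and the next control at 12.8 CPM. Control 2 also had the highest Schwann, oligodendrocyte, neutrophil and fibroblast marker sums among the controls, and the part of these in the 3 values was not tested.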

How the results depend on the processing

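The number of members called higher was 4 with DESeq2, DESeq2 size factors, no filter and the stricter filter, the same 4 genes each time. It was 3 with limma-voom, which lost Mmp12, and 6 without controls 2 and 6, where Adamts10 and Adamtsl4 joined the 4. With each library left out it lay between 2 and 4; Mmp12 and Mmp17 were called in all 12 of these fits, Adamtsl1 in 6 and Mmp14 in 4. It was 2 without DAAO 1, 2 or 3 or control 1, 3 or 5. The number of members called lower was 0 in every fit. Over all genes 128 were called, against 353 with DESeq2, 648 without controls 2 and 6, and 61 to 322 with each library left out (322 without control 2 and 61 without DAAO 6). Without controls 2 and 6 the log2 fold changes of Mmp9, Timp2 and Timp4 changed sign, to 0.057, -0.065 and 0.026. With limma-voom that of Timp3 was 0.0029. With each library left out Timp3 ranged from -0.21 to 0.025 and Timp4 from -0.81 to 0.23. The cause was not tested. With the number in the sample titles as a replicate block 5 members were called higher, Mmp2 being the fifth (adjusted p = 0.0164), and 187 genes in all. Deviations of same-numbered libraries correlated between -0.08 and 0.21, above 0.1 in 2 of 6 pairs. Of 6 DAAO libraries 2 correlated best with their own number. These values show no clear pairing by number, but 6 pairs of libraries with varying tissue content cannot exclude a pairing or a shared batch. The 10 members that did not pass the filter had between 0 and 231 counts over the 12 libraries.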
